A study of Mus musculus with 16 samples.

Results

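Mitochondrial DNA carries a small set of genes whose proteins sit inside the respiratory chain, and their RNA was followed here in mouse interscapular brown fat. The 10 genes were taken by symbol from the table of read counts per gene: mt-Nd1, mt-Nd2, mt-Nd4, mt-Nd5 and mt-Nd6 (complex I), mt-Cytb (complex III), mt-Co1, mt-Co2 and mt-Co3 (complex IV) and mt-Atp6 (complex V). Of these, 7 were counted and tested among the 14103 tested genes of a table of 38924. The other 3, mt-Co2, mt-Co3 and mt-Atp6, had 0 or 1 count in every library and give no level.

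The 4 groups were of C57BL/6J mice, with 4 libraries each and 16 in all: Akt2 knockouts at 22 °C, wild-type littermates at 22 °C, Akt2 knockouts at 30 °C and wild-type littermates at 30 °C. The mice spent 4 weeks at their temperature, between 9 and 13 weeks of age, and 30 °C is close to thermoneutral for a mouse. In the knockouts (KO) Akt2, a kinase that acts downstream of insulin, was deleted with UCP1-CreER, a Cre recombinase driven by the Ucp1 promoter and thus directed at brown adipocytes. RNA came from the whole fat pad, so cells without Cre contribute to each library, and in such tissue fewer cells of a type and less RNA per cell cannot be told apart. Whether each library is a separate animal is not in the labels, and p-values here cover only the spread between libraries, which may be technical.

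Both strands of mitochondrial DNA are copied by a dedicated RNA polymerase, Polrmt, into long transcripts that are cut at the tRNAs between the genes. The messages are translated inside the organelle, and their products are joined to many more subunits that are encoded in the nucleus and imported. Complexes I, III and IV pump protons, complex V makes ATP from the gradient, and in brown fat Ucp1 lets the protons back to make heat.

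Library totals were 12751528 to 23866743 counts. Akt2 averaged 82.2 ± 6.03 CPM (counts scaled to the effective library size) in KO and 231.7 ± 19.8 CPM in wild-type fat at 22 °C, and 69.4 ± 10.7 CPM in KO and 203.6 ± 12.9 CPM in wild-type fat at 30 °C (SD, n = 4 each). All 11 brown adipocyte markers were counted and together took 1.90 to 2.49% of counts in KO at 22 °C, 1.81 to 2.93% in wild type at 22 °C, 1.35 to 1.60% in KO at 30 °C and 1.38 to 1.56% in wild type at 30 °C. Skeletal muscle markers exceeded 0.1% of counts in 4 libraries, with 0.578% in KO replicate 1 at 22 °C, 0.108% and 0.353% in KO replicates 1 and 2 at 30 °C and 0.234% in wild-type replicate 2 at 30 °C. Wild-type replicate 2 at 22 °C stood apart from its group in the mitochondrial genes and in the nuclear-encoded subunits. Member results that rest on it are given with and without it. Medians and single-gene differences of nuclear genes are given only with it.

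The 3 members without a level lie in a stretch of mitochondrial DNA that also stands in the nuclear genome, so the sequences are shown first. Transcripts of GENCODE M21 on GRCm38 were searched for copies of each member with blastn. On chromosome 1, 7 annotated pseudogenes lie side by side on the minus strand at chr1:24611535-24616197, and they copy the stretch of mitochondrial DNA from the end of mt-Co1 into mt-Nd4. mt-Co2, subunit 2 of cytochrome c oxidase, is matched over 681 bases by Gm28661 with 100% identity. The first 60 bases of mt-Co2 (chrM:7013-7072, plus strand) and of its copy (chr1:24615506-24615565, minus strand) are shown in lower case throughout, since no base differs between them.
mt-Co2: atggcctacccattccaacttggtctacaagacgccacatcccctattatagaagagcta
Gm28661: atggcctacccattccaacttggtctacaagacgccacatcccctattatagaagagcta
mt-Atp6, the ATP synthase subunit of the proton channel, is matched by Gm10925 over 678 bases, and mt-Co3, subunit 3 of cytochrome c oxidase, by Gm28437 over 783 bases, both with 100% identity.

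mt-Co1, the catalytic subunit of cytochrome c oxidase, is copied in part. Its last 483 bases match Gm29216 with 99.8% identity, and the 1 differing base of that stretch is in capitals below (mt-Co1 chrM:6390-6449, plus strand, and Gm29216 chr1:24616129-24616188, minus strand).
mt-Co1: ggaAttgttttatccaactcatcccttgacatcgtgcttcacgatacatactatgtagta
Gm29216: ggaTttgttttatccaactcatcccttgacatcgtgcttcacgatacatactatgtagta
mt-Nd4, a proton-pumping subunit of complex I, is matched over its first 876 bases by Gm28439 with 100% identity. mt-Cytb, the central subunit of complex III, has a more diverged copy, Gm11410 on chromosome 4, with 92.9% identity over 1142 bases. The pair is shown as the contrast to the exact copies, with differing bases in capitals (mt-Cytb chrM:14146-14205, Gm11410 chr4:80003990-80004049, both plus strand).
mt-Cytb: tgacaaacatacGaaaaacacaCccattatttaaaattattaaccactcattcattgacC
Gm11410: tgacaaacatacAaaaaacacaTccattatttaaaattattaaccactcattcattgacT

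Sequence shared with other transcripts was set beside the counts. Of all windows of 50 bases in a member, the share with no exact match in another transcript was 100% for mt-Nd1, mt-Nd6 and mt-Cytb, 92.4% for mt-Nd5 and 91.8% for mt-Nd2. It was 48.9% for mt-Co1, 37.8% for mt-Nd4, 0.475% for mt-Atp6, 0.136% for mt-Co3 and 0% for mt-Co2. Summed over the 16 libraries, mt-Co1 had 16703071 counts and mt-Cytb 15485501, against 5 for mt-Co2 and 3 each for mt-Atp6 and mt-Co3. All 8 annotated genes between mt-Co1 and mt-Nd3 had at most 1 count in any library. One of them, mt-Atp8, had 100% of its windows without a match in another annotated transcript and was still at 0 or 1. Only annotated transcripts were searched. mt-Atp8 lies mostly between mt-Co2 and mt-Atp6, and the DNA between their annotated copies on chromosome 1 was not searched. How reads with several matches were counted is not given in the sources used here, and the part of the copies in these values was not tested.

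**Figure D1:**
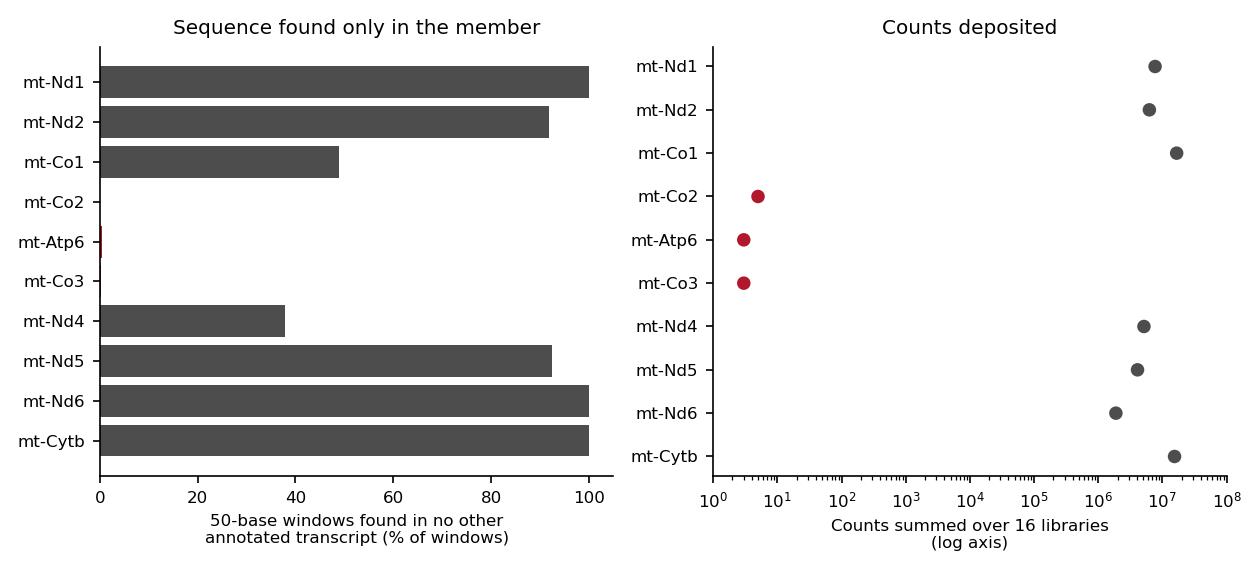
Bars on the left give, for each of the 10 members, the percent of its 50-base windows found in no other annotated transcript, and points on the right give its counts summed over the 16 libraries (log axis). The members with almost no window of their own, mt-Co2, mt-Co3 and mt-Atp6 (red), have 5 counts or fewer, while the members with 100%, mt-Nd1, mt-Nd6 and mt-Cytb, have 1887210 to 15485501.

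The members took a large part of each library. The 7 counted members together held 21.4 ± 0.327% of all counts in KO fat at 22 °C, 16.9 ± 3.15% in wild-type fat at 22 °C, 26.1 ± 1.44% in KO fat at 30 °C and 24.1 ± 1.30% in wild-type fat at 30 °C (SD, n = 4 each). Wild-type replicate 2 at 22 °C had 12.3%, and the other 3 of its group had 18.1 to 18.8%, for a mean of 18.5 ± 0.396% without it (SD, n = 3). With or without that library, every KO library at 22 °C lay above every wild-type library at 22 °C, and both groups at 22 °C lay below both at 30 °C. A share falls when other RNA rises, so the genes are described one by one below on the scale of effective library size.

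**Figure D2:**
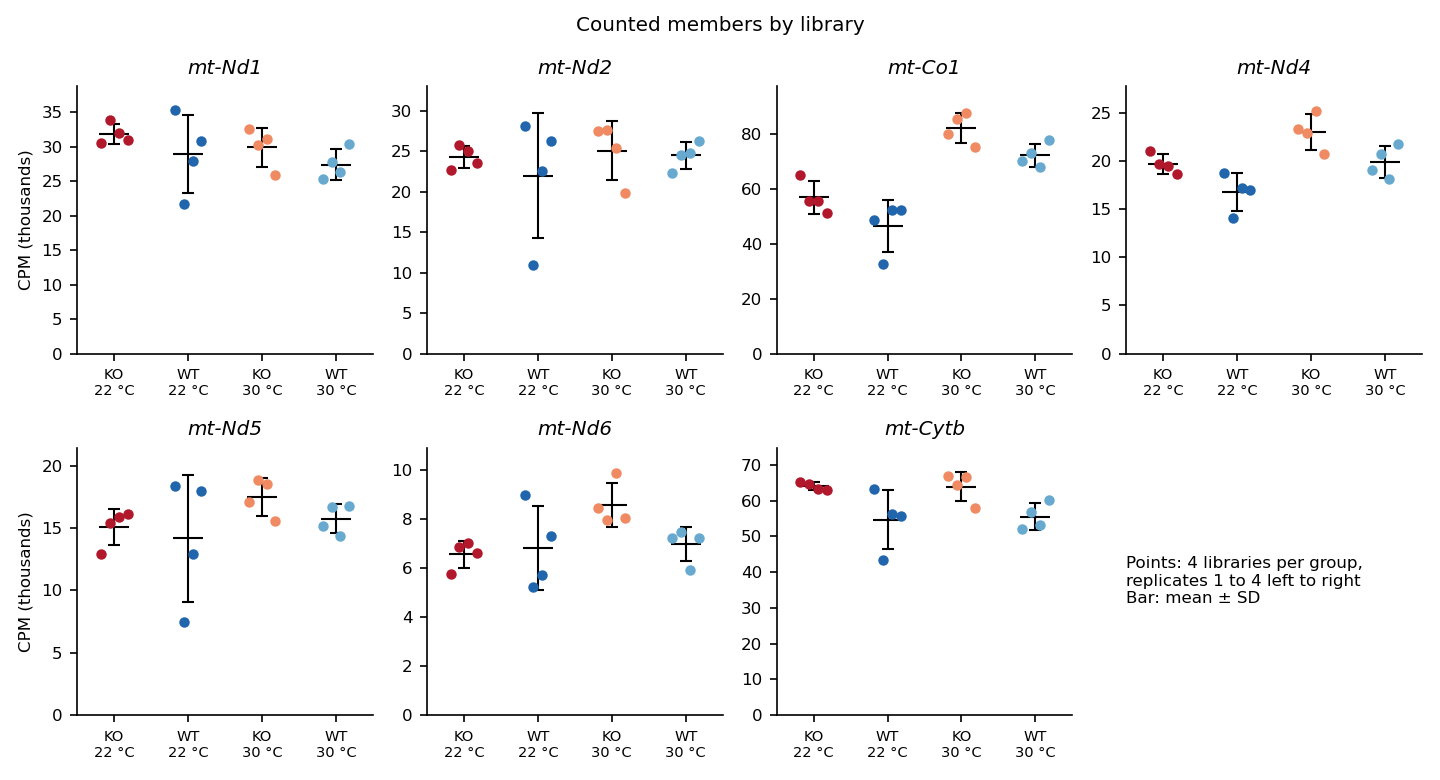
CPM of each counted member in each of the 16 libraries (points) with the group mean and SD, groups in the order KO and wild type at 22 °C, then KO and wild type at 30 °C. mt-Co1 is the member with the clear step between temperatures, with 32590 to 65000 CPM over the 8 libraries at 22 °C and 67800 to 87320 CPM over the 8 at 30 °C, and wild-type replicate 2 at 22 °C is the lowest of the 16 for each of the 7 members.

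Divided by gene length, mt-Cytb was the most abundant member in all 4 groups, with means of 55970 ± 903 CPM per kb in KO at 22 °C, 47760 ± 7146 in wild type at 22 °C, 55860 ± 3631 in KO at 30 °C and 48520 ± 3280 in wild type at 30 °C (SD, n = 4 each). mt-Co1 came next at 30 °C, with 53000 ± 3543 CPM per kb in KO and 46640 ± 2731 in wild type, and its libraries overlapped with those of mt-Cytb there. At 22 °C mt-Co1 averaged 36740 ± 3797 CPM per kb in KO and 30020 ± 6064 in wild type, where its range overlapped with that of mt-Nd1, at 33270 in KO and 30220 in wild type. mt-Nd2 followed (21150 to 24160 over the 4 group means), then mt-Nd4 and mt-Nd6 (12190 to 16740 for mt-Nd4 and 12640 to 16510 for mt-Nd6), and mt-Nd5 was lowest (7775 to 9602). Per kb of windows found in no other annotated transcript, mt-Co1 moved to the top in every group and mt-Nd4 to the place after mt-Cytb. The order of levels thus depends on how the shared stretches are treated. mt-Nd6, a core membrane subunit of complex I, is the sole member on the opposite strand, and its end overlaps the end of mt-Nd5 by 14 bases. The last 30 bases of mt-Nd5 (chrM:13536-13565, plus strand) show the overlap in capitals, and without a stated strand setting reads there cannot be told apart.
mt-Nd5: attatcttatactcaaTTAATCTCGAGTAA

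Lower housing temperature went with less mt-Co1 RNA in both genotypes. In KO fat, 1 of the 7, mt-Co1, was lower at 22 °C than at 30 °C, and none was higher. Of all tested genes 13.0% were called lower and 13.8% higher there, so edgeR's count of lower members is near the share of all genes. DESeq2 and limma-voom each called 3 members lower there, mt-Co1, mt-Nd4 and mt-Nd6. In wild-type fat, mt-Co1 and mt-Nd4 were lower at 22 °C and none was higher, where 17.8% of all tested genes were called lower and 20.5% higher. The members' median log2 difference was -0.21 in KO and -0.15 in wild type, against 0.02 in KO and -0.03 in wild type for all tested genes. Without wild-type replicate 2 at 22 °C the median in wild type was 0.06, with 5 of 7 members positive, so its sign rested on that library. A gene was called at an adjusted p under 0.05 by edgeR's quasi-likelihood test with Benjamini-Hochberg adjustment over all tested genes.

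mt-Co1 had 65000, 55630, 55300 and 51110 CPM in the KO libraries at 22 °C, against 79740, 85240, 87320 and 75210 CPM in the KO libraries at 30 °C. In wild type it had 48490, 32590, 52180 and 52290 CPM at 22 °C, against 69920, 72980, 67800 and 77520 CPM at 30 °C. In both genotypes each library at 22 °C was below each library at 30 °C, which held for 15.0% of all tested genes in KO and 16.9% in wild type. The log2 difference was -0.53 in KO (SE 0.125, edgeR adjusted p = 0.00608), or 0.693-fold, and -0.64 in wild type (SE 0.125, edgeR adjusted p = 0.000974), or 0.644-fold. Without wild-type replicate 2 at 22 °C it was -0.50 in wild type (edgeR adjusted p = 0.000331). In KO the call was lost when the 4 libraries with over 0.1% muscle marker counts were left out (log2 difference -0.59, edgeR adjusted p = 0.0576). That takes out KO replicate 1 at 22 °C and KO replicates 1 and 2 at 30 °C, so fewer KO libraries were compared. Calls over all genes in this comparison also fell, from 3772 of 14103 to 2115 of 14397.

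mt-Cytb, with no window matched in another annotated transcript, served as the contrast. It had 65220, 64560, 63270 and 63070 CPM in KO at 22 °C, against 66840, 64440, 66460 and 57880 CPM in KO at 30 °C. In wild type it had 63160, 43490, 56230 and 55690 CPM at 22 °C, against 51960, 56760, 53100 and 60220 CPM at 30 °C. The groups overlapped in both genotypes, and the log2 difference was 0.00 in KO (SE 0.0940, edgeR adjusted p = 0.988) and -0.02 in wild type (SE 0.0940, edgeR adjusted p = 0.868). With library totals alone, a scaling that moved the median of all genes in wild type by -0.28, mt-Cytb was called lower at 22 °C in wild type (-0.30, edgeR adjusted p = 0.00778).

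The ratio of the 2 within a library needs no scaling between libraries. There were 0.997, 0.862, 0.874 and 0.810 mt-Co1 counts per mt-Cytb count in KO at 22 °C, against 1.19, 1.32, 1.31 and 1.30 in KO at 30 °C. In wild type the ratio was 0.768, 0.749, 0.928 and 0.939 at 22 °C, against 1.35, 1.29, 1.28 and 1.29 at 30 °C. No library at 22 °C reached the lowest one at 30 °C, and wild-type replicate 2 did not stand apart in this ratio. Of the reads counted to members, mt-Co1 took 26.0 ± 2.14% in KO and 24.5 ± 2.05% in wild type at 22 °C, and 32.8 ± 1.09% in KO and 32.4 ± 0.464% in wild type at 30 °C (SD, n = 4 each).

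mt-Nd4 was also lower at 22 °C in wild type, with a smaller difference. It had 18830, 14110, 17220 and 17020 CPM in wild type at 22 °C, against 19110, 20780, 18120 and 21850 CPM in wild type at 30 °C, where the highest library at 22 °C overlapped the lowest at 30 °C. The log2 difference was -0.25 in wild type (SE 0.0913, edgeR adjusted p = 0.0412), and without wild-type replicate 2 at 22 °C it was no longer called (edgeR adjusted p = 0.0960). The call was also lost, at edgeR adjusted p-values of 0.0510 to 0.120, without any one of wild-type replicates 3 and 4 and KO replicate 3 at 22 °C, or wild-type replicates 2 and 4 and KO replicate 2 at 30 °C. In KO mt-Nd4 had 21110, 19690, 19470 and 18670 CPM at 22 °C, against 23380, 22940, 25220 and 20710 CPM at 30 °C, and the highest at 22 °C again overlapped the lowest at 30 °C. The log2 difference of -0.22 was not called in KO (SE 0.0913, edgeR adjusted p = 0.0806). It was called without wild-type replicate 2 at 22 °C (-0.23, edgeR adjusted p = 0.0277) or KO replicate 4 at 30 °C (-0.29, edgeR adjusted p = 0.0402). It was also called with DESeq2 (DESeq2 adjusted p = 0.0456), limma-voom (limma-voom adjusted p = 0.00724) and only the groups compared (edgeR adjusted p = 0.0299). Per mt-Cytb count at 22 °C, mt-Nd4 had 0.296 to 0.324 in KO and 0.298 to 0.324 in wild type. At 30 °C it had 0.350 to 0.380 in KO and 0.341 to 0.368 in wild type, without overlap between temperatures. The same ratio overlapped for mt-Nd1 and mt-Nd2 in both genotypes, and for mt-Nd5 and mt-Nd6 in wild type only. mt-Co1 and mt-Nd4 were the members called lower, and mt-Cytb differed little, so their ratios restate those values and add no separate support. No share of all genes was computed for such ratios.

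**Figure D3:**
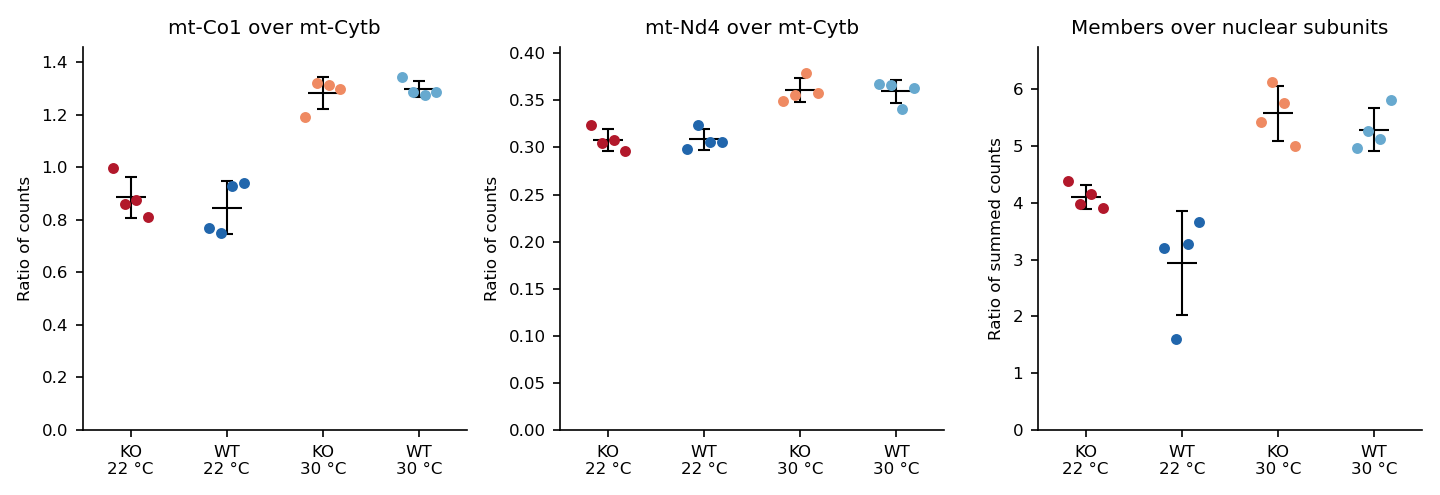
Ratios within each library (points, with the group mean and SD): mt-Co1 counts per mt-Cytb count, mt-Nd4 counts per mt-Cytb count, and summed member counts per summed count of nuclear-encoded subunits, groups in the order KO and wild type at 22 °C, then KO and wild type at 30 °C. In all 3 panels the 8 libraries at 22 °C lie below the 8 at 30 °C, for mt-Co1 per mt-Cytb at 0.749 to 0.997 against 1.19 to 1.35.

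mt-Nd6 had 5766, 6842, 7022 and 6614 CPM in KO at 22 °C, against 8426, 7955, 9867 and 8024 CPM in KO at 30 °C. These groups did not overlap, as held in this direction for 15.0% of all tested genes. The log2 difference of -0.39 was not called (SE 0.143, edgeR adjusted p = 0.0580), but was in 7 of 28 alternatives. Among them were the fits without wild-type replicate 1 (edgeR adjusted p = 0.0208) or 2 (edgeR adjusted p = 0.0271) at 22 °C, which enter the shared spread. The others were DESeq2 (DESeq2 adjusted p = 0.0311), limma-voom (limma-voom adjusted p = 0.0105), only the groups compared, upper-quartile scaling and library totals alone. In wild type mt-Nd6 had 8994, 5214, 5710 and 7318 CPM at 22 °C, against 7241, 7484, 5934 and 7242 CPM at 30 °C, an overlap on both sides with a log2 difference of -0.03 (edgeR adjusted p = 0.867). The other complex I members were not called in either genotype, and their groups overlapped. mt-Nd1, a core membrane subunit, differed by 0.09 in KO (SE 0.118) and 0.08 in wild type (SE 0.118) on the log2 scale. mt-Nd2, a proton-pumping subunit, differed by -0.05 in KO and -0.16 in wild type (SE 0.204 each), and mt-Nd5, the distal proton-pumping subunit, by -0.21 in KO and -0.15 in wild type (SE 0.197 each).

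The temperature differences and the copies can be set side by side. The 3 tested mitochondrial protein genes with a near-identical stretch on chromosome 1 had log2 differences in KO of -2.30 (mt-Nd3), -0.53 (mt-Co1) and -0.22 (mt-Nd4), and in wild type of -2.97, -0.64 and -0.25. The 5 without one, mt-Nd1, mt-Nd2, mt-Nd5, mt-Nd6 and mt-Cytb, lay between -0.39 and 0.09 in KO and between -0.16 and 0.08 in wild type. Without wild-type replicate 2 at 22 °C the 5 lay between 0.06 and 0.19 in wild type, where 4 of them had been negative with it. Without that library mt-Co1 was at -0.50 in wild type, and mt-Nd4, then not called, was at -0.18. mt-Nd3, a small complex I subunit that is no member, rests on 11 to 154 counts a library. A further copy has a row of its own: Gm13340 on chromosome 2, with 97.6% identity to mt-Co1 over 1545 bases, had 314 to 873 counts a library. Gm13340 was also lower at 22 °C, by a log2 difference of -0.65 in KO (edgeR adjusted p = 0.00217) and -0.54 in wild type (edgeR adjusted p = 0.00448), without overlap in either. Its neighbour Gm13341, a copy of mt-Co2, was not called, with log2 differences of 0.12 in KO and -0.09 in wild type. Gm11512 on chromosome 11, a shorter copy of mt-Co1 with at most 28 counts a library, was not called either. Its log2 differences were -0.37 in KO and -0.11 in wild type, with overlap in both. Reads from stretches that a gene and its copy share exactly cannot be told apart in these counts. The part of the copies in the mt-Co1 and mt-Nd4 differences was not tested.

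Markers of other cell types also differed with temperature. For comparison, 13.0% of all tested genes were called lower at 22 °C in KO and 17.8% in wild type. Macrophage markers summed to 135.5 to 169.6 CPM (here of the plain library total) in KO and 108.0 to 236.9 in wild type at 22 °C, and to 264.1 to 324.1 in KO and 244.8 to 387.2 in wild type at 30 °C, with 9 of 12 lower at 22 °C in each genotype. Endothelial markers summed to 1050 to 1304 CPM in KO and 797 to 1003 in wild type at 22 °C, and to 1492 to 1655 in KO and 1497 to 1591 in wild type at 30 °C; 3 of 9 were lower at 22 °C and 1 higher in KO, and 7 of 9 lower in wild type. Fibroblast markers summed to 853 to 986 CPM in KO and 705 to 969 in wild type at 22 °C, and to 967 to 1311 in KO and 1039 to 1570 in wild type at 30 °C. Of 12 muscle markers edgeR, DESeq2 and limma-voom called 0 between temperatures in either genotype, with 0 at an unadjusted p under 0.05; their median log2 difference was 0.61 in KO and -2.64 in wild type. Without the 4 libraries with over 0.1% muscle marker counts the members' median was -0.11 in KO and -0.13 in wild type. None of the marker lists had a marker at 0 counts throughout, and the part of macrophage, endothelial and fibroblast markers in the members' values was not tested.

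Loss of Akt2 left no member called at either temperature. At 22 °C, KO against wild type gave 0 of 7 called by edgeR, where 17.6% of all tested genes were called; 3 members had an unadjusted p under 0.05, and DESeq2 and limma-voom called 0. All but mt-Nd6 had a positive log2 difference, with 0.29 for mt-Co1 (SE 0.124, edgeR adjusted p = 0.110), 0.23 for mt-Nd4 (SE 0.0913, edgeR adjusted p = 0.0864), 0.23 for mt-Cytb (SE 0.0940, edgeR adjusted p = 0.0988), 0.15 for mt-Nd2, 0.14 for mt-Nd1, 0.09 for mt-Nd5 and -0.05 for mt-Nd6. The members' median was 0.15, against 0.02 for all tested genes. Without wild-type replicate 2 the median was 0.02, as for all genes, and none was called: mt-Nd4 had 0.16, mt-Co1 0.15, mt-Cytb 0.13 and mt-Nd1 0.02, while mt-Nd2 had -0.08, mt-Nd5 -0.12 and mt-Nd6 -0.16. Without wild-type replicate 1, mt-Cytb (0.31, edgeR adjusted p = 0.0315) and mt-Nd4 (0.29, edgeR adjusted p = 0.0417) were called higher in KO. Calls also depended on the scaling: with library totals alone, which moved the median of all genes by 0.13, mt-Co1 (0.42, edgeR adjusted p = 0.0221), mt-Nd4 (0.36, edgeR adjusted p = 0.00635) and mt-Cytb (0.36, edgeR adjusted p = 0.00794) were called higher in KO.

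At 30 °C, KO against wild type also gave 0 of 7 called by edgeR, where 0.0425% of all tested genes were called; 2 members had an unadjusted p under 0.05, and DESeq2 and limma-voom called 0. The log2 differences were 0.30 for mt-Nd6, 0.21 for mt-Nd4, 0.20 for mt-Cytb, 0.18 for mt-Co1, 0.15 for mt-Nd5, 0.13 for mt-Nd1 and 0.04 for mt-Nd2, all with an edgeR adjusted p of 0.998. For mt-Nd6 the 4 KO libraries, at 7955 to 9867 CPM, lay above the 4 wild-type libraries, at 5934 to 7484 CPM; groups were ordered without overlap in this direction for 3.36% of all tested genes. The interaction, which is the KO difference at 22 °C minus that at 30 °C, was called for 0 of 7 members by edgeR, where 3.14% of all tested genes were called; 0 had an unadjusted p under 0.05, and DESeq2 and limma-voom called 0. Its size ran from -0.35 for mt-Nd6 to 0.11 for mt-Co1 and mt-Nd2. Without wild-type replicate 2 at 22 °C all 7 were negative, between -0.46 and -0.03, and none was called. Endothelial markers were called higher in KO at 22 °C for 6 of 9, with a median log2 difference of 0.40. Of all 14103 tested genes, 1061 were called higher in that comparison. Of 12 muscle markers edgeR called 0 in KO against wild type at 22 °C, with 3 at an unadjusted p under 0.05, 1 by DESeq2 and 0 by limma-voom, but all 12 differences were positive with a median of 3.73. Without the 4 libraries with over 0.1% muscle marker counts the members' median in KO against wild type at 22 °C was 0.17. The part of the endothelial markers in the members' values was not tested.

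The nuclear-encoded subunits of the same complexes took another course. Of 79 listed, 77 were tested. In KO fat 29 were higher at 22 °C and 0 lower (median log2 difference 0.27), and in wild-type fat 74 were higher and 0 lower (median 0.72). In KO against wild type at 22 °C, 33 were lower and 0 higher (median -0.33), and at 30 °C edgeR called 0, with 1 at an unadjusted p under 0.05 and 0 by DESeq2 or limma-voom (median 0.13). The called nuclear-encoded subunits thus rose at the temperature at which mt-Co1 fell. In the main fit the other members stayed without a call, mt-Nd4 in wild type excepted. In KO, DESeq2 and limma-voom also called mt-Nd4 and mt-Nd6 lower at 22 °C. Wild-type replicate 2 at 22 °C held 7.67% of its counts in the nuclear-encoded subunits, against 5.08 to 5.89% in the rest of its group. Without that library 73 were higher at 22 °C in wild type, and 25 were lower in KO against wild type at 22 °C. The medians above include it. The count in KO between temperatures was 5 without the libraries with over 0.1% muscle marker counts, 12 with library totals alone or upper-quartile scaling, 47 with only the groups compared and 51 with limma-voom. It moved to 48 without wild-type replicate 2 at 22 °C, whose spread enters the shared fit, and to between 11 and 19 without any one of KO replicates 2, 3 and 4 at 22 °C, KO replicates 2, 3 and 4 at 30 °C or the wild-type replicates 1 to 4 at 30 °C. In the main fit, 13.8% of all tested genes were higher at 22 °C in KO and 20.5% in wild type. The main fit had 10.1% lower in KO against wild type at 22 °C. The alternatives have shares of their own. In KO, 955 of 14397 genes were higher at 22 °C without the muscle-marker libraries and 3079 of 14103 with limma-voom. Higher genes in KO were 1195 of 14103 with library totals alone, 1179 of 14103 with upper-quartile scaling and 2220 of 13406 with only the groups compared.

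Every complex had nuclear-encoded subunits that rose at 22 °C in both genotypes. For complex I, which takes 5 of the members, 10 of 36 tested nuclear subunits were higher at 22 °C in KO and 35 of 36 in wild type. Ndufa10, an accessory subunit, differed by 0.14 in KO (edgeR adjusted p = 0.265) and 0.77 in wild type on the log2 scale. For complex II, succinate dehydrogenase, which has no mitochondrially encoded subunit, 2 of 4 were higher in KO and 4 of 4 in wild type. Its flavoprotein Sdha differed by 0.37 in KO (edgeR adjusted p = 0.00168) and 0.81 in wild type (edgeR adjusted p = 1.2e-06). For complex III, home of mt-Cytb, 7 of 9 were higher in KO and 9 of 9 in wild type. The core protein Uqcrc1 differed by 0.06 in KO and 0.67 in wild type, and cytochrome c1, Cyc1, by 0.31 in KO and 0.58 in wild type.

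For complex IV, which holds mt-Co1, 4 of 14 nuclear subunits were higher at 22 °C in KO and 13 of 14 in wild type. Cox6a1, a subunit around that core, had 1109 to 1207 CPM in KO at 22 °C, 1535 to 2760 CPM in wild type at 22 °C, 773 to 921 CPM in KO at 30 °C and 833 to 933 CPM in wild type at 30 °C. The libraries at 22 °C were above those at 30 °C in both genotypes, and at 22 °C each KO library was below each wild-type library. The 2760 CPM was wild-type replicate 2, and the rest of its group had 1535 to 1724 CPM. Its log2 difference between temperatures was 0.40 in KO (edgeR adjusted p = 0.0453) and 1.15 in wild type (edgeR adjusted p = 1.89e-05), opposite in sign to mt-Co1 in both. Cox4i1, which binds the catalytic core, differed by 0.17 in KO (edgeR adjusted p = 0.348) and 0.52 in wild type (edgeR adjusted p = 0.00558). For complex V, 6 of 14 were higher in KO and 13 of 14 in wild type, among them Atp5a1 of the catalytic head with 0.27 in KO (edgeR adjusted p = 0.0251) and 0.72 in wild type (edgeR adjusted p = 1.1e-05). The 3 subunits not called in wild type were Ndufs7 (0.26), Cox6a2 (-3.19) and Atp5g1 (-0.76), named here after their values were seen; Cox6a2 is the isoform of striated muscle.

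**Figure D4:**
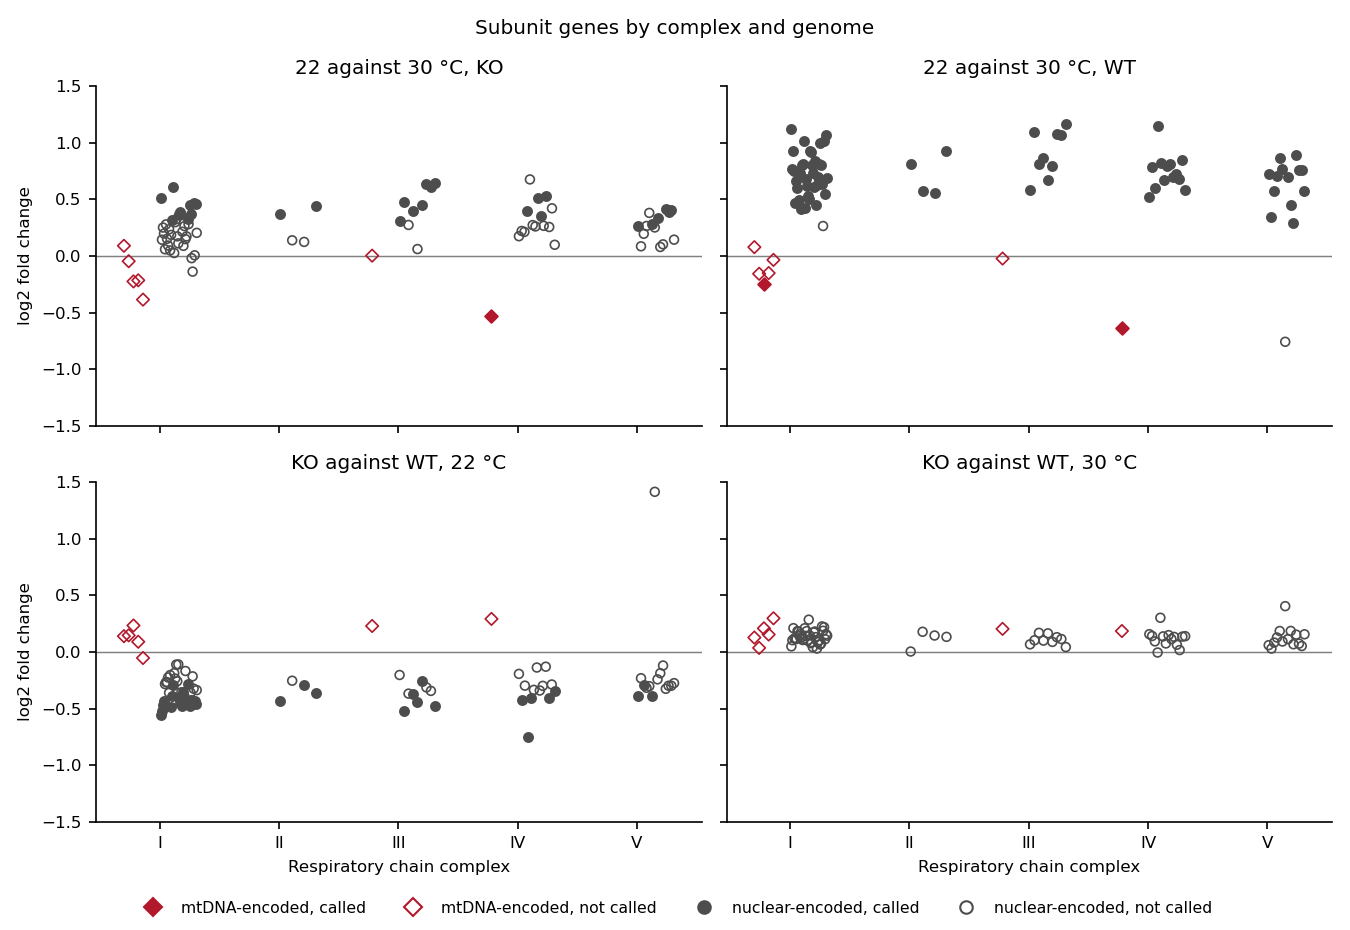
Log2 differences of the 7 counted members and of the nuclear-encoded subunits of each complex in 4 comparisons: 22 against 30 °C in KO and in wild type, and KO against wild type at 22 °C and at 30 °C. The axis stops at 1.5 in each direction, and Cox6a2 lies outside it in wild type between temperatures (-3.19) and in KO against wild type at 22 °C (4.17). In wild type between temperatures the members have a median of -0.15, or 0.06 without wild-type replicate 2 at 22 °C. The nuclear subunits have one of 0.72, which includes that library.

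In KO against wild type at 22 °C the lower nuclear subunits were 17 of 36 in complex I, 3 of 4 in complex II, 5 of 9 in complex III, 5 of 14 in complex IV and 3 of 14 in complex V. Cox6a1 differed by -0.76 (edgeR adjusted p = 0.00226), Ndufa10 by -0.52 (edgeR adjusted p = 0.00186), Uqcrc1 by -0.44 (edgeR adjusted p = 0.0131) and Sdha by -0.44 (edgeR adjusted p = 0.0011). The count of 33 was 7 without the libraries with over 0.1% muscle marker counts and 4 with only the groups compared. It was 9 with library totals alone and 19 with limma-voom. Of all genes tested in those fits, the lower ones were 887 of 14397, 441 of 13149, 704 of 14103 and 1219 of 14103, in that order. The count of 33 also moved with single libraries. It was 57 without wild-type replicate 4 at 22 °C, and 19 and 18 without KO replicates 1 and 3 at 22 °C. The interaction was called for 8 subunits, all negative (Ndufa10, Ndufs1, Ndufv2, Sdha, Sdhd, Uqcrc1, Cox6a1 and Atp5a1), where 2.39% of all tested genes had a called negative interaction, and this count moved by over 1.5 times whichever of the 16 libraries was left out, to 39 without wild-type replicate 4 at 22 °C, to 14 without wild-type replicate 2 or 3 at 22 °C and to between 0 and 4 without any other.

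Summed within each library, the members gave 4.11 ± 0.213 counts per count of nuclear-encoded subunits in KO at 22 °C, 2.93 ± 0.914 in wild type at 22 °C, 5.58 ± 0.483 in KO at 30 °C and 5.29 ± 0.374 in wild type at 30 °C (SD, n = 4 each). Wild-type replicate 2 at 22 °C had 1.60, and without it the group averaged 3.38 ± 0.255 and ran from 3.20 to 3.67 (SD, n = 3). The KO libraries at 22 °C, at 3.90 to 4.39, lay above all wild-type libraries at 22 °C and below all libraries at 30 °C, which started at 4.96.

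Genes that copy mitochondrial DNA into RNA and handle that RNA were read from lists of their own. Of all tested genes, 13.8% were called higher at 22 °C in KO and 20.5% in wild type. In KO against wild type at 22 °C, 10.1% were called lower. Of 9 transcription genes, 3 were higher at 22 °C in KO and 5 in wild type, and in KO against wild type at 22 °C edgeR called 0, with 1 at an unadjusted p under 0.05, 1 by DESeq2 and 0 by limma-voom. Polrmt, the polymerase, differed by 0.38 in KO (edgeR adjusted p = 0.0184) and 0.35 in wild type (edgeR adjusted p = 0.0177) between temperatures. Tfam, which packs and activates mitochondrial DNA, differed by 0.18 in KO (edgeR adjusted p = 0.178) and 0.42 in wild type (edgeR adjusted p = 0.00302). Tefm, the elongation factor, differed by 0.37 in wild type (edgeR adjusted p = 0.0260). These transcription genes rose in wild type at 22 °C, where no member was called higher.

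RNA processing and stability genes were higher at 22 °C for 9 of 21 in KO and 16 of 21 in wild type. Lrpprc, which binds and stabilises mitochondrial messages, had 168.7 to 199.5 CPM in KO at 22 °C, 236.0 to 275.1 CPM in wild type at 22 °C, 174.1 to 184.7 CPM in KO at 30 °C and 160.8 to 183.3 CPM in wild type at 30 °C. The wild-type libraries at 22 °C were above all others, with log2 differences of 0.56 between temperatures in wild type (edgeR adjusted p = 3.89e-05), 0.06 in KO, and -0.44 in KO against wild type at 22 °C (edgeR adjusted p = 0.00118). Its partner Slirp differed by 0.35 in KO (edgeR adjusted p = 0.0534) and 0.77 in wild type (edgeR adjusted p = 0.000244). In KO against wild type at 22 °C, 5 of the 21 were lower, and Hsd17b10, part of the enzyme that cuts tRNAs at their front end, was the 1 called higher (0.33, edgeR adjusted p = 0.0447).

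Of 12 translation factors, 6 were higher at 22 °C in KO, 9 in wild type, and 4 were lower in KO against wild type at 22 °C. Gfm1, an elongation factor of mitochondrial ribosomes, differed by 0.49 in KO and 0.96 in wild type between temperatures and by -0.42 in KO against wild type at 22 °C. Of 10 genes of replication and nucleotide supply, 1 was higher at 22 °C in KO and 3 in wild type. These counts are near the 13.8% and 20.5% of all tested genes. In KO against wild type at 22 °C edgeR called 0 of these 10, with 4 at an unadjusted p under 0.05, 1 by DESeq2 and 0 by limma-voom. Of 8 nuclear regulators, 1 was higher at 22 °C in KO and none lower, and 2 were higher and 1 lower in wild type. Ppargc1a, a coactivator of respiratory genes, was higher at 22 °C by 2.41 in KO and 1.30 in wild type, and by 1.16 in KO against wild type at 22 °C (edgeR adjusted p = 0.00348). In wild type Esrra, a nuclear receptor of respiratory genes, was also higher (0.58, edgeR adjusted p = 0.00600), and Ppara, a nuclear receptor of fatty acid oxidation, was lower (-0.71, edgeR adjusted p = 0.0283).

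The other genes of mitochondrial DNA were read in the same fit. In all, 37 of its genes are in the table, 25 were tested and 18 of those are not members. In KO against wild type at 22 °C, 3 of the 18 were called, a share near the 17.6% of all tested genes, and all were higher: both ribosomal RNAs and the tRNA mt-Tf (1.17, edgeR adjusted p = 0.0447), which rests on 2 to 16 counts a library at 22 °C and was lost in 18 of 27 alternatives. mt-Rnr1, the small ribosomal RNA, had 9679, 8639, 6186 and 4981 CPM in KO at 22 °C, against 3261, 2737, 3550 and 3077 CPM in wild type at 22 °C, without overlap. The log2 difference was 1.22 (SE 0.211, edgeR adjusted p = 0.00145), and for mt-Rnr2, the large one, 1.28 (SE 0.251, edgeR adjusted p = 0.00357). Between temperatures in KO they were higher at 22 °C by 0.94 (edgeR adjusted p = 0.00443) and 0.87 (edgeR adjusted p = 0.0185), and the second call was lost without any one of 4 KO libraries, replicates 1 and 2 at 22 °C and replicates 3 and 4 at 30 °C (log2 difference 0.63 to 0.78, edgeR adjusted p = 0.0516 to 0.0591). Both sum to 1.13 to 2.37% of counts in KO and 0.530 to 0.747% in wild type at 22 °C, and 0.813 to 1.22% in KO and 0.522 to 0.833% in wild type at 30 °C; whether ribosomal RNA was removed from these libraries is not given in the sources used here.

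Of the 22 tRNA genes 15 were tested. Between temperatures 6 were lower at 22 °C and 1 higher in KO, and 7 lower and 1 higher in wild type. Of all tested genes, 13.0% were lower and 13.8% higher in KO, and 17.8% lower and 20.5% higher in wild type. Tested tRNAs next to members differed among themselves. mt-Tl1, just before mt-Nd1, was lower by -1.34 in KO and -1.43 in wild type, and mt-Tm, just before mt-Nd2, by -2.46 in KO and -3.03 in wild type. mt-Tt, just after mt-Cytb, was lower by -1.16 in KO and -1.25 in wild type. mt-Ti, at the end of mt-Nd1, was lower by -0.68 in KO and -1.08 in wild type, and its KO call was lost in 10 of 28 alternatives. mt-Tl2, just before mt-Nd5, was called lower in wild type (-1.29) and not in KO (-0.34). mt-Te, between mt-Nd6 and mt-Cytb, was called in neither (0.01 in KO and -0.02 in wild type). mt-Tp was the higher one, by 0.55 in KO and 0.51 in wild type. Gene counts do not separate cut tRNAs from longer transcripts that still hold them.

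**Figure D5:**
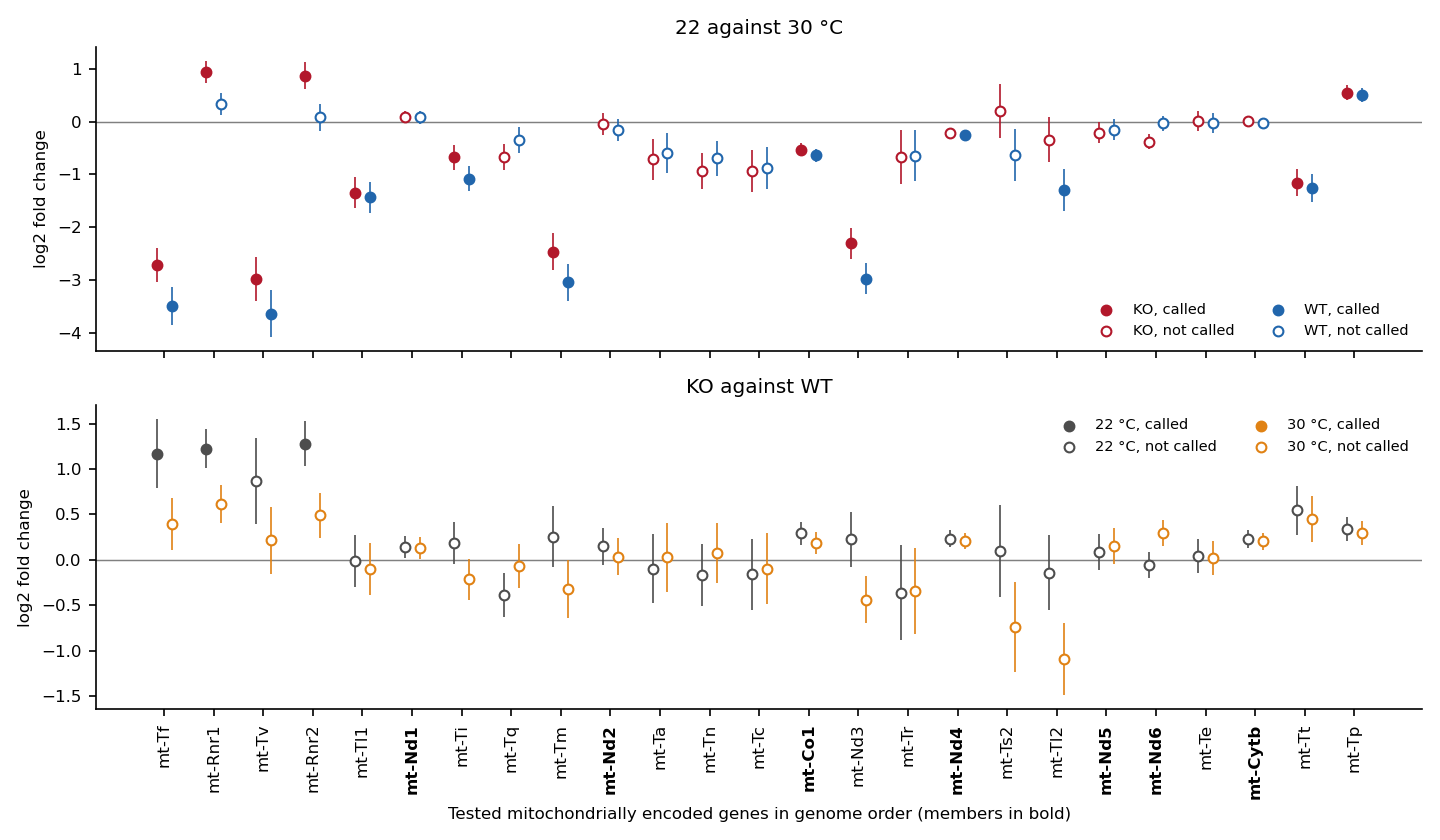
Log2 differences of the tested genes of mitochondrial DNA in their order along it. Bars are SE, filled points are called genes and member names are in bold. The upper panel gives 22 against 30 °C in KO and in wild type. The lower panel gives KO against wild type at 22 °C and at 30 °C. In the upper panel the members lie between -0.64 and 0.09, while several tRNAs and mt-Nd3 lie below -1. In the lower panel the members lie between -0.05 and 0.30.

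The genes outside mitochondrial DNA whose level went most with the members were found by Pearson's r between log2 CPM of a gene and the mean log2 CPM of the 6 counted members other than mt-Nd6, over the 16 libraries and 12802 genes. They were Tmem123 (r = 0.90), Tpp1 (0.88), Cdc73 (0.87), Vbp1 (0.87) and Csgalnact2 (0.87). These libraries share groups, scaling and the low library of wild type at 22 °C, so the values are a description.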

How the data were processed

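Interscapular brown fat RNA was sequenced in 16 libraries, grouped by their titles. The authors deposited a table of raw counts for each Ensembl gene and library, and no column of it was left unused. The tools named in the submitters' processing notes are STAR 2.4.2a, edgeR 3.14.0 and FastQC 0.10.1, and the builds mm10 and GRCm38, without their roles. Not given in the sources used here are the counting program, annotation, strand setting, read length and any ribosomal RNA removal. Symbols matched 37607 of 38924 identifiers, and the rest held at most 0.132% of a library's counts.

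Here, counts were fitted in R 4.3.3 with edgeR 4.0.16 (quasi-likelihood test, TMM scaling, filterByExpr with a minimum count of 10, all 16 libraries, a term per group), which tested 14103 genes holding at least 99.9% of counts. The biological coefficient of variation was 22.5%, and counting error was small beside it for the members, though not for genes with few counts such as mt-Tf. Calls are Benjamini-Hochberg adjusted p under 0.05. The scripts were tested on simulated counts. Replicates differed by more than counting noise. Same-numbered libraries correlated between -0.527 and 0.466 in their deviations, so the numbers were not taken as pairs. Alternatives were other scalings, no filter and a stricter one, DESeq2 1.42.0, limma 3.58.1 (voom), a replicate block, only the groups compared, muscle-marker libraries left out or as a covariate, and each library left out. Copies were found with blastn 2.17.0 among GENCODE M21 transcripts; coordinates are GRCm38.

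The members and lists were chosen with earlier results of these data known. Named genes are all members, the 4 most abundant genes of each list, called genes against their list's direction, 7 genes of mitochondrial transcription, replication and RNA stability, and the 5 genes most like the members.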

Additional observations from a re-analysis of the deposited data

Results flagged for a closer look

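The share of counts held by the 7 counted members was 12.26% in wild-type replicate 2 at 22 °C, far below the 18.07 to 18.82% of the other 3 libraries of that group. mt-Nd6 had 5934 CPM in wild-type replicate 3 at 30 °C, below the 7241 to 7484 CPM of the other 3. These were 2 of 32 group checks for a lone library, and chance gives about 1 in 20.

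The KO difference at 22 °C minus that at 30 °C was called by edgeR (adjusted p under 0.05) for the following genes named by the lists, with log2 values of -0.50 for Lrpprc, -0.62 for Ndufa10, -0.45 for Ndufs1, -0.61 for Ndufv2, -0.44 for Sdha, -0.49 for Sdhd, -0.61 for Uqcrc1, -0.75 for Cox6a1 and -0.45 for Atp5a1. It was -0.47 for Gfm1 and -0.42 for Gfm2, factors of mitochondrial translation, and -0.53 for Lipe, the hormone-sensitive lipase. It was positive for Vwf, an endothelial gene (0.87), and Dcn, a fibroblast gene (0.69). No member was among them.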

How the results depend on the processing

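No called result changed sign under any alternative. mt-Co1 was called lower at 22 °C in wild type under all 28 alternatives (log2 -0.91 to -0.50) and in KO under 27, the exception being muscle-marker libraries left out. The mt-Nd4 call in wild type was lost in 14 of 28, among them without any one of 7 libraries (wild-type replicates 2, 3 and 4 at 22 °C, wild-type replicates 2 and 4 at 30 °C, KO replicate 3 at 22 °C and KO replicate 2 at 30 °C). Members called in KO against wild type at 22 °C were 3 with library totals alone. Members called between temperatures in wild type were 1 under DESeq2-type size factors (RLE), no filter, voom, only the groups compared, muscle-marker libraries left out and the muscle covariate. In KO they were 3 (mt-Co1, mt-Nd4 and mt-Nd6) under upper-quartile scaling, library totals, DESeq2, voom and only the groups compared. They were 0 in KO with muscle-marker libraries left out.

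Nuclear subunits called in KO against wild type at 22 °C were 9 with library totals, 19 with voom, 4 with only the groups compared and 7 with muscle-marker libraries left out. Between temperatures in KO they were 12 with upper-quartile scaling and with library totals, 51 with voom, 47 with only the groups compared and 5 with muscle-marker libraries left out. For the interaction they were 2 with upper-quartile scaling, 0 with library totals, 1 without a filter, 34 with DESeq2, 30 with voom, 0 with muscle-marker libraries left out and 2 with the muscle covariate. With the replicate block, members called in wild type numbered 1 and nuclear interaction calls 1, and no other count moved by over 1.5 times. For KO against wild type at 22 °C and between temperatures in KO, the share of all tested genes also differed between settings, as given above.

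With the 50 most abundant nuclear genes out of the total, the member share was 25.1% in KO and 21.6% in wild type at 22 °C, and 29.9% in KO and 27.8% in wild type at 30 °C. Leaving out single libraries gave 0 to 2 members in KO against wild type at 22 °C, 0 at 30 °C and for the interaction, 1 to 2 in wild type and 1 to 3 in KO between temperatures. The nuclear counts were 18 to 57 in KO against wild type at 22 °C, 70 to 75 in wild type and 11 to 48 in KO between temperatures, and 0 to 39 for the interaction. Shares were 21.3 to 21.5% in KO and 16.3 to 18.5% in wild type at 22 °C, and 25.7 to 26.8% in KO and 23.6 to 24.5% in wild type at 30 °C. Over all genes named, 14351 of 15114 gene results kept their side of the threshold, 586 lost their call and 177 gained one. Library totals alone moved the median of all genes by -0.28 between temperatures in wild type, 0.13 in KO against wild type at 22 °C and 0.19 in the interaction. The cause of these changes was not tested. Reads of near-identical copies, an unknown strand setting and whole tissue limit every member's value.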
